A study of Mus musculus with 12 samples.

Results

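The cells described here are the neurons that the deposited annotation calls Striatal inh1 [3-P], an inhibitory neuron type of the striatum recovered from dissections of newborn mouse prefrontal cortex. Members were taken by that annotation alone, which gave 915 of 36263 cells. They were compared with the other striatal type of the annotation, Striatal inh2 [7-P] (1482 cells), and with the 35348 cells of all other types, Striatal inh2 [7-P] included. The series profiled wild-type mice and mice with 1 or 2 mutant copies of Myt1l, a zinc-finger transcription factor of neurons, to ask which cell types and genes differ when it is reduced or lost. RNA of single methanol-fixed cells was read from the 5′ end on a droplet platform, with hashing oligos and 4 sequencing runs per library.

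The groups were Myt1l WT (+/+), HET (+/−) and HOM (−/−) at postnatal day 0. The mutant allele is a CRISPR deletion of 7 bp in exon 6, with altered residues from position 11 and a stop at residue 78. Each genotype was 1 library of pooled cells from 2 animals, and the cells carry no animal of origin in the table used here. These names follow the deposited labels, with which a legend of the study conflicts. It gives the cell total of the library labelled WT to (−/−), that of HET to (+/+) and that of HOM to (+/−), and which is right was not settled here. WT, HET and HOM below mean the libraries labelled so, and every direction between genotypes depends on these labels. There are no replicates, no genotype difference was tested, and both mutant comparisons share the same WT library. Shares are given with 95% intervals by the exact Clopper-Pearson method, and these account for counting error alone.

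Striatal projection neurons are the GABA-releasing output cells of the striatum and are born in the lateral ganglionic eminence. Those of the direct pathway carry the dopamine receptor Drd1 with the peptides substance P (Tac1) and dynorphin (Pdyn), and depend on the transcription factors Isl1 and Ebf1. Those of the indirect pathway carry Drd2, the adenosine receptor Adora2a, the orphan receptor Gpr6 and the enkephalin precursor Penk, and depend on Sp9 and Six3. Both start from a common programme that includes Foxp1, Bcl11b and Meis2, and retinoic acid in the developing ganglionic eminence promotes their differentiation.

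The WT library held 180 of the cells, the HET library 342 and the HOM library 393. Depth was low, with a median of 1573, 1596.5 and 2468 molecules per cell, against 3053.5, 3107 and 3261 in Striatal inh2 [7-P]. The deposited values had already been corrected for depth by the authors, so a level below is the sum of these corrected values over the cells of a group, in parts per 1000000 of the sum over all genes (ppm). It is a share of the group's RNA within 1 gene and is not scaled to gene length. Of the 915 cells, 779 (85.1%) lay in 1 Leiden cluster of the deposited embedding, and these cells made up 38.3% of its 2034 cells. The label was given with a probability of at least 0.9 to 81.7% of the WT, 75.4% of the HET and 84.2% of the HOM cells. Xist was above 0 in 21 of the WT cells and in none of the HET or HOM cells, while Y-linked genes were above 0 in 14, 49 and 72, so that animal sex and genotype cannot be told apart for genes that differ by sex. Of the cell barcodes of these neurons, 1 occurred in a pair of libraries (WT and HOM).

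The 3 markers given for the type were checked first. Foxp1, a forkhead transcription factor of striatal projection neurons (chr6:98925338-99522721, minus strand, mm10), stood at 1523 (WT), 1352 (HET) and 1660 (HOM) ppm, the highest of the 18 types compared in every library. It was above 0 in 71.7% (64.5–78.1) of the WT, 64.6% (59.3–69.7) of the HET and 75.6% (71.0–79.7) of the HOM cells. In microglia, where Foxp1 stood at 48.5, 57.1 and 21.2 ppm, the shares were 3.64%, 4.32% and 2.31%. Their median depth was 741, 760 and 818.5 molecules per cell. Foxp1 was thus found in most of the cells of each library, far above the share in microglia.

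Penk (chr4:4133531-4138819, minus strand) was also highest in these cells in all 3 libraries, at 213, 503 and 367 ppm in WT, HET and HOM. The next type, Int2, had 61.9, 73.0 and 36.1. Penk was above 0 in only 13.9% (9.19–19.8), 20.5% (16.3–25.1) and 15.3% (11.9–19.2) of the cells, with 0.405%, 0.719% and 0.578% in microglia. Ebf1 (chr11:44617317-45008091, plus strand) was at 356, 295 and 314 ppm, second to an endothelial type that had 660, 595 and 407. Penk and Ebf1 therefore marked a minority of the cells each, and Ebf1 was shared with vessel cells, whose other markers were scarce here: the summed level of the endothelial markers was 33.2, 93.5 and 100 ppm, against 591, 792 and 847 in all other cells.

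**Figure D1:**
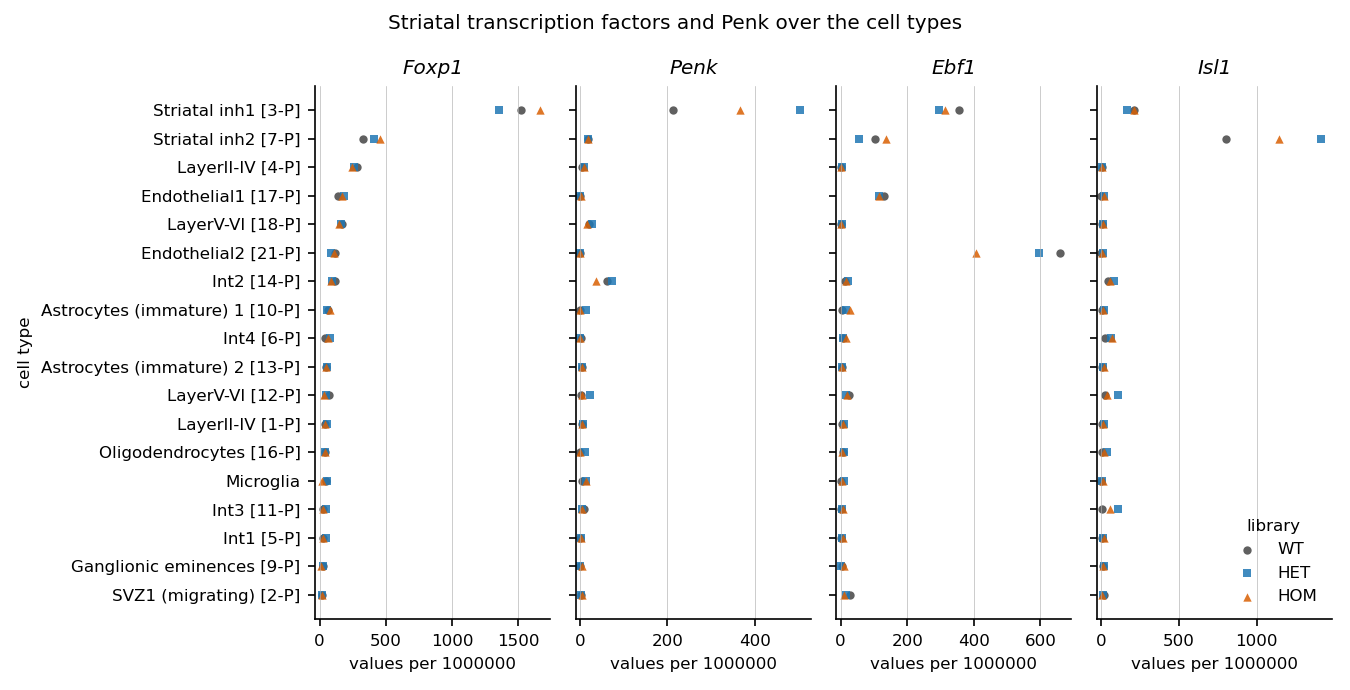
Levels of Foxp1, Penk, Ebf1 and Isl1 in 18 cell types, in parts per 1000000 of all genes on a linear axis, with 1 point for each library (WT, HET, HOM). Foxp1 and Penk are highest in Striatal inh1 [3-P] in all 3 libraries, Ebf1 is second to an endothelial type, and Isl1 is second to Striatal inh2 [7-P].

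Markers of most other cell types were lower than in all other cells. The summed level of the excitatory cortical markers was 299, 422 and 377 ppm (WT, HET, HOM), against 2060, 1719 and 1783 in all other cells. For cortical interneuron markers it was 384, 357 and 430, against 1150, 1200 and 1408. For astrocyte and radial glia markers it was 2040, 2525 and 2291, against 8272, 9691 and 10555. Microglial markers summed to 37.9, 88.7 and 32.8 ppm, and oligodendrocyte markers to 61.7, 86.3 and 82.0. The markers of each of these types were below their level in the other cells in all 3 libraries. The astrocyte and radial glia level was, however, above that of Striatal inh2 [7-P] (1273, 1661 and 1785). Cholinergic neuron markers were the exception, at 213, 170 and 213 ppm against 53.0, 105 and 87.0 in all other cells. Of their 7 members, 5 were at 0 in all 3 libraries of Striatal inh1 [3-P]. Almost all of the level was Isl1, which is counted below among the direct-pathway genes, so it does not mark cholinergic neurons here.

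Against all other cells, 1.67% of the 13622 genes compared were at least 2-fold higher in all 3 libraries and 14.4% at least 2-fold lower. Because the annotation was made from the expression of the same cells, these differences describe the type and are not tests. Of 22 striatal projection neuron genes compared, 12 were at least 2-fold higher in every library and none at least 2-fold lower, with a median log2 ratio of 1.50. All 7 indirect-pathway genes compared were at least 2-fold higher (median log2 ratio 4.10). By contrast none of the 20 cortical interneuron genes, 15 excitatory cortical genes or 18 cell cycle genes compared were 2-fold higher, and 15, 13 and 16 of them were 2-fold lower.

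The gene with the largest smallest ratio over the 3 libraries was Rxrg, a retinoid X receptor (chr1:167598384-167639623, plus strand), at 247, 364 and 447 ppm against 4.76, 12.1 and 13.0 in all other cells (log2 ratios of 5.70, 4.92 and 5.11). Penk was next, with a log2 ratio of at least 4.91. P2ry1, a purine receptor, followed with 4.57 or more, and Rarb, a retinoic acid receptor, with 4.28 or more. Adora2a had 3.75 or more. Others of the 15 leading genes were Dio3, which inactivates thyroid hormone, the transcription factors Six3, Ebf1, Foxp1, Nkx2-3, Zfp503 and Zfhx3, the guanine nucleotide exchange factor Ngef, and Gucy1a1, a subunit of the nitric oxide receptor guanylate cyclase, whose smallest log2 ratios ran from 3.68 down to 3.09. Both retinoid receptors thus stood among the 4 leading genes, beside peptide and purine signalling.

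Rarb is itself known to respond to retinoic acid through a direct repeat of a short half-site just before the start of a transcript. The stretch of 100 bases before a Rarb transcript start is shown because this repeat lies in it. It is at chr14:16575477-16575576 (GRCm38, which is mm10; minus strand; RefSeq), and the capitals mark the pair of half-sites, which are separated by 5 bases.
Rarb promoter: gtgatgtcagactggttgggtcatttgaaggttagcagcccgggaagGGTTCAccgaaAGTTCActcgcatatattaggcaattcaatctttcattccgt
The first capital lies 53 bases before the start. The pattern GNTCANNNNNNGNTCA, searched on both strands, was found in 255 of 32851 windows of 250 bases before RefSeq transcript starts (0.776%). Among the 15 leading genes, 12 had windows in the table and 1 of their 17 windows held it, that of Rarb. The letters AAAGTT, the core of the MYT1 family motif, were in 12.4% of all windows on either strand and in 1 of these 17, again that of Rarb, where they overlap the second half-site. A match describes letters and is not evidence of binding, and Penk and Adora2a had no window in the table.

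Other retinoid genes were also high. Rarb (chr14:16430839-16819156) was at 346, 345 and 494 ppm, the highest of the 18 types in each library. It was above 0 in 29.4% (22.9–36.7), 31.9% (27.0–37.1) and 44.5% (39.5–49.6) of the cells, and in none, none and 0.289% of microglia. Crabp1, a retinoic acid binding protein, was at 85.4, 47.9 and 69.7 ppm against 8.72, 10.1 and 10.1 in Striatal inh2 [7-P]. Of 7 retinoid genes compared between both striatal types, 3 were at least 2-fold higher in Striatal inh1 [3-P] in all libraries and 1 at least 2-fold lower.

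Between both striatal types, 67 of 8118 genes (0.825%) were at least 2-fold higher in Striatal inh1 [3-P] in all 3 libraries and 461 (5.68%) at least 2-fold lower. The median log2 ratio of all genes was −0.35, so ratios near that value are close to the middle of all genes. With the libraries scaled by the median ratio of genes instead, the counts were 127 higher and 216 lower, and lower genes outnumbered higher ones under both scalings.

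Indirect-pathway genes led the side that was higher in Striatal inh1 [3-P]. Penk was at 213, 503 and 367 ppm against 17.4, 18.8 and 17.9 in Striatal inh2 [7-P], log2 ratios of 3.61, 4.74 and 4.35. Drd2 (chr9:49340627-49408177, plus strand) was at 61.7, 40.8 and 45.1 against 6.54, 2.90 and 4.48. Adora2a (chr10:75316877-75334784, plus strand) was at 128, 113 and 176 against 24.0, 17.4 and 20.2. Gpr6 (chr10:41069977-41072285, minus strand) was at 42.7, 50.3 and 26.6 ppm, while in Striatal inh2 [7-P] it was listed at 0 in WT and HET and stood at 1.12 in HOM. These genes were higher in every library. Of the 6 indirect-pathway genes with enough values to be compared, which leaves out Gpr6, 4 were at least 2-fold higher in all 3 (Penk, Drd2, Adora2a and Gucy1a1), with a median log2 ratio of 2.55. The transcription factors Sp9 and Six3 showed no such separation, with log2 ratios of −0.50, 0.48 and −0.03 for Sp9 and of 0.12, 1.10 and 0.34 for Six3.

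Direct-pathway genes were divided. Tac1 was at 71.2, 38.4 and 102 ppm against 19.6, 8.69 and 28.0 in Striatal inh2 [7-P]. Ebf1 was at 356, 295 and 314 against 102, 55.0 and 137. Isl1 (chr13:116298281-116309689, minus strand), which specifies direct-pathway neurons, was lower, at 213, 165 and 211 against 804, 1415 and 1145 (log2 ratios of −1.91, −3.10 and −2.44). Drd1, at 4.74, 2.40 and 6.15 ppm, and Pdyn, at 9.49, 0 and 4.10, were too low in these cells to set the groups apart. Of 5 direct-pathway genes compared, 2 were thus at least 2-fold higher in Striatal inh1 [3-P] in all libraries and 1 at least 2-fold lower.

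The other leading genes on the higher side were Dach1, a transcription factor (log2 ratio of at least 3.24 in each library), Rxrg (2.78), the calcium-binding protein gene Caln1 (2.56), the glutamate receptor Grm5 (2.54), the G protein subunit Gng7 (2.27), the receptor subunit Neto1 (2.26), the growth cone gene Gap43 (2.19) and Gucy1a1 (2.17). Gap43 stood at 1186, 1247 and 1150 ppm against 238, 274 and 237. Gnal, the G protein alpha subunit that couples dopamine and adenosine receptors to cAMP in the striatum, was at 323, 302 and 340 against 102, 97.0 and 113. Among 21 genes of dopamine and cAMP signalling compared, 5 were at least 2-fold higher in every library and none at least 2-fold lower, with a median log2 ratio of 0.79.

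On the lower side, Wnt5a, a secreted Wnt ligand, was listed at 0 in all 3 libraries of Striatal inh1 [3-P] and stood at 48.0, 72.4 and 47.1 ppm in Striatal inh2 [7-P]. Neb, Zadh2, Ntng1, the neuregulin receptor Erbb4, the neuropeptide Y receptor Npy1r, Adarb2, the progenitor transcription factor Gsx2, Sox1ot and Fam135b followed. Erbb4 was at 23.7, 21.6 and 22.5 against 294, 194 and 212. Foxp2, a forkhead transcription factor, was at 304, 240 and 148 against 1083, 1080 and 963 (log2 ratios of −1.84, −2.17 and −2.71). Of 17 genes of the ganglionic eminence lineage compared, 8 were at least 2-fold lower in all libraries and 1 at least 2-fold higher. Of the genes for GABA synthesis and transport, Gad1 was lower in all 3 libraries (75.9, 103 and 90.2 against 316, 219 and 278), and Gad2 was at 308, 314 and 353 against 621, 589 and 643.

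**Figure D2:**
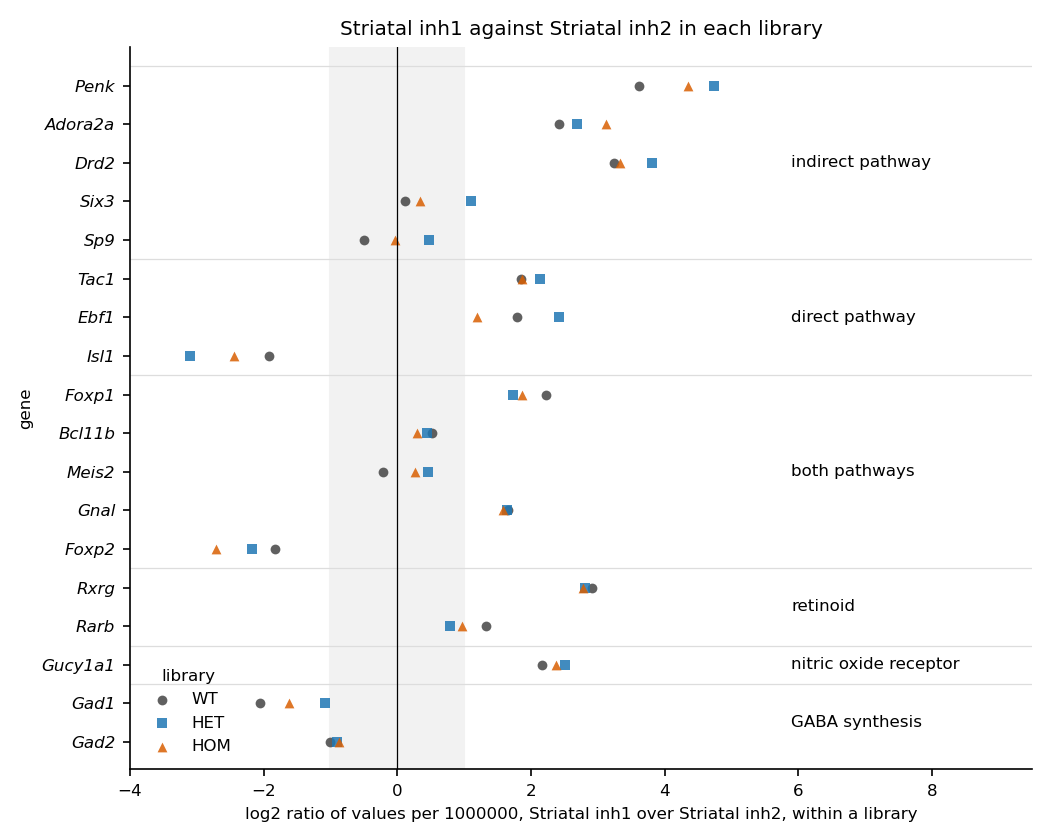
Log2 ratio of the level in Striatal inh1 [3-P] over Striatal inh2 [7-P] for 18 genes grouped by role, with 1 point for each library (WT, HET, HOM) and a grey band for ratios under 2-fold. Penk, Adora2a, Drd2, Rxrg and Gucy1a1 lie above the band in all 3 libraries and Isl1 lies below it, while Sp9, Meis2 and Bcl11b lie within it.

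Penk and Ebf1 were found in nearly separate cells. Of the 915 cells, 155 had a Penk value above 0, and 1 of these (0.645%) had Ebf1, against 18.6% of the 760 cells without Penk. Isl1 was above 0 in 5 of the 155 (3.23%, 1.06–7.37) and in 141 of the 760 (18.6%, 15.8–21.5), and Tac1 in 0 of the 155 (0–2.35% of cells with a value) and in 38 of the 760 (5%). The cells with Penk were the deeper ones, with a median of 3289 molecules against 1583, so that their lower shares of Ebf1, Isl1 and Tac1 run against their depth. In each library the cells with Penk held Ebf1 in 0 of 25 (WT), 0 of 70 (HET) and 1 of 60 (HOM).

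Drd2 and Penk met more often, as did Ebf1 and Isl1. Drd2 was above 0 in 23 of the 155 cells with Penk (14.8%) and in 3.29% of the others. Among cells with at least 2000 molecules the shares were 15.6% against 6.57%. By library they were 27.8% against 7.69% (WT), 16.7% against 4% (HET) and 9.30% against 7.65% (HOM), so HOM showed little difference. Adora2a was in 17.4% of the cells with Penk against 11.7%, but in 18.3% against 21.5% among cells with at least 2000 molecules, so it did not go with Penk once depth was closer. Of the 142 cells with Ebf1, 64 (45.1%) had Isl1, against 82 of the 773 without (10.6%), and at 2000 molecules the shares were 54.8% and 14.5%. Isl1 was in none of the 116 cells with Adora2a, and Ebf1 was in 1 of them. Gucy1a1 was in 80.6% of the cells with Penk and 43.9% of the others (89.9% and 61.5% at 2000 molecules), and Foxp2 in 7.10% against 18.7% (7.34% and 26.0%). Foxp1 was in 59.4% of the cells with Penk and in 73.0% of those without (67.0% and 91.3% at 2000 molecules). The common marker was thus frequent on both sides, but less so in the cells with Penk.

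The cells were then sorted by whether they had any of 6 indirect-pathway genes (Drd2, Penk, Adora2a, Gpr6, Sp9, Six3) and any of 5 direct-pathway genes (Drd1, Tac1, Pdyn, Isl1, Ebf1). Of the 915 cells, 327 (35.7%, 32.6–38.9) had indirect-pathway genes only, 218 (23.8%, 21.1–26.7) direct-pathway genes only, 18 (1.97%, 1.17–3.09) both and 352 (38.5%) neither. In microglia the shares were 1.95%, 1.61% and 0.115% for indirect only, direct only and both, at a median of 787 molecules. Among the 444 cells with at least 2000 molecules, 51.8% were indirect only, 30.4% direct only, 3.15% both and 14.6% neither. The cells with neither were thus fewer at depth, and cells with both remained few.

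The shares by library were 32.2% (WT), 36.8% (HET) and 36.4% (HOM) for indirect only, and 24.4%, 18.1% and 28.5% for direct only. Cells with both made up 2.22%, 0.877% and 2.80%. In Striatal inh2 [7-P] direct-only cells were the larger class in each library (35.6%, 56.9% and 53.5%), against 24.4%, 13.1% and 20.8% indirect only. Most of these indirect-only cells had Sp9 or Six3 alone. With Sp9, Six3 and Ebf1 left out, a choice made after values were seen, 3.82%, 3.38% and 3.44% were indirect only. Direct-only cells were then 36.5%, 57.1% and 55.2%. In Striatal inh1 [3-P] the same sets gave 25%, 28.9% and 29.8% indirect only and 18.9%, 13.7% and 21.6% direct only. Striatal inh1 [3-P] therefore held cells of both kinds in every library. The indirect-only class was the larger, although the intervals of both classes overlapped in WT and HOM. The size of a class also depends on how readily its genes are found, and Drd1 and Pdyn were very low in these cells. The classes therefore do not count the neurons of each pathway. The order of the classes was the reverse in Striatal inh2 [7-P], whose cells were the deeper ones and had the higher Isl1 level.

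**Figure D3:**
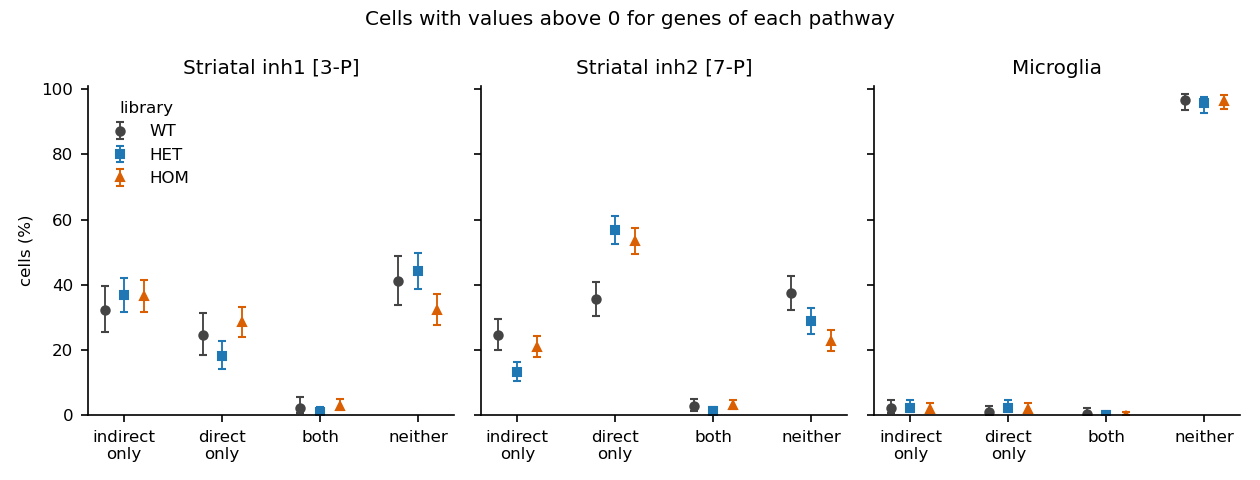
Percent of cells with indirect-pathway genes only, direct-pathway genes only, both or neither, in Striatal inh1 [3-P], Striatal inh2 [7-P] and microglia, by library, with exact 95% intervals as error bars. In Striatal inh1 [3-P] the indirect-only class is above the direct-only class in each library, and cells with both stay at or under 2.80%.

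Both kinds of cell were compared within Striatal inh1 [3-P] with narrower gene sets that leave out Sp9 and Six3 on the indirect and Ebf1 on the direct side, which gave 261 indirect-only cells, 166 direct-only cells and 8 with both. The genes of the sets define the classes and are given only as description, and the comparison was chosen after these values were seen. Of 966 genes with enough values, 12 were at least 2-fold higher in the indirect-only cells in all 3 libraries and 5 at least 2-fold lower. Median depth was 3575, 3289 and 3576 molecules in the indirect-only and 4356, 2689 and 3381 in the direct-only cells.

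Guanylate cyclase genes were on the indirect side. Gucy1a1 (chr3:82092427-82145789, minus strand) stood at 2283 (WT), 2182 (HET) and 2743 (HOM) ppm in indirect-only cells against 137, 294 and 303 in direct-only cells. Its partner subunit Gucy1b1 had log2 ratios of 1.73, 1.74 and 2.22. Mpped2, a metallophosphoesterase gene, was at 1820, 1701 and 1771 against 137, 294 and 356, and Ptprm, a receptor tyrosine phosphatase, at 481, 365 and 264 against 0, 0 and 17.8. The corepressor Tle4 had log2 ratios of 1.76, 1.85 and 1.69. Sp9 was at 258, 210 and 270 in the indirect-only cells and listed at 0, 15.5 and 0 in the direct-only cells. It belonged to the wider set and was left out of the narrower one after values were seen, so this is description only. These genes differed between the classes in each library. Gucy1a1 is on the list of indirect-pathway genes and had already been seen to go with Penk. Its side was thus known in advance and is no separate support for the classes.

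On the direct side Ebf1 was at 1255, 1083 and 810 ppm against 0, 0 and 12.9 in the indirect-only cells. It was left out of the narrower sets, but had already been seen to go with Isl1 and apart from Penk and Adora2a. Its side was thus known in advance and is no separate support for the classes. Foxp2 was at 730, 557 and 258 ppm against 137, 109 and 51.5 in the indirect-only cells. It too had already been seen less often in cells with Penk, so its side is no separate support either. The vesicle gene Syt4 had log2 ratios of indirect over direct of −3.93, −2.65 and −2.85. The retinoid receptors were shared. Log2 ratios were 0.67, 0.06 and 0.29 for Rxrg and −0.17, −0.39 and −0.21 for Rarb, and Foxp1 had −0.52, −0.59 and −0.29. Foxp2 was thus high in the cells with direct-pathway genes and low in those with indirect-pathway genes, whereas both retinoid receptors were present on each side at less than a 2-fold difference.

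**Figure D4:**
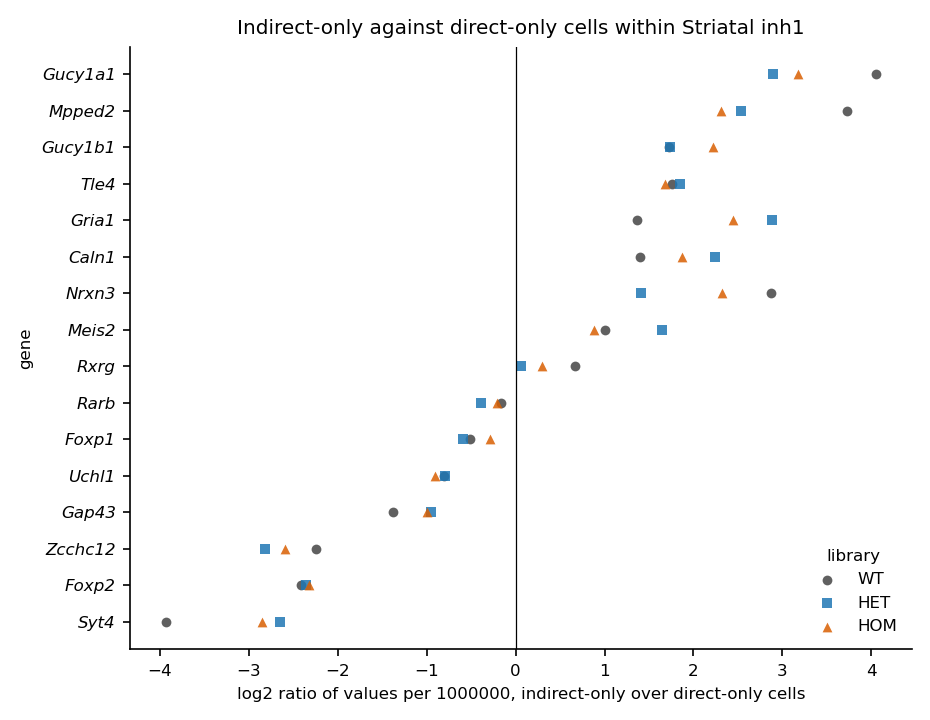
Log2 ratio of the level in indirect-only over direct-only cells within Striatal inh1 [3-P] for 16 genes, with 1 point for each library (WT, HET, HOM). Gucy1a1 and Mpped2 are on the indirect side, Foxp2 and Syt4 on the direct side, and Rxrg, Rarb and Foxp1 differ by less than 2-fold.

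The genotypes were compared first in cell number. Striatal inh1 [3-P] cells were 1.71% (1.47–1.98) of the WT, 2.83% (2.54–3.14) of the HET and 2.87% (2.60–3.16) of the HOM cells. As a share of both striatal types they were 34.6% (30.5–38.9), 40.5% (37.1–43.9) and 38.1% (35.1–41.1), and Striatal inh2 [7-P] itself made up 3.24%, 4.17% and 4.67% of all cells. Both striatal types were thus a larger share of the mutant libraries. These are neurons of the striatum in a cortical dissection, so the amount of striatum in each pool and genotype cannot be told apart.

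The targeted gene, Myt1l (chr12:29528384-29923213, plus strand), stood at 470 (WT), 508 (HET) and 920 (HOM) ppm in Striatal inh1 [3-P]. The small deletion leaves the transcript readable, so that this level does not check the labels. It was above 0 in 37.8% (30.7–45.3), 42.1% (36.8–47.5) and 63.6% (58.6–68.4) of the cells, and in 4.05%, 7.91% and 13.9% of microglia. The log2 ratio over WT was 0.11 in HET and 0.97 in HOM, against 0.22 and 0.81 in Striatal inh2 [7-P]. Myt1l was higher in HOM in all 15 other types with enough values (median log2 ratio 1.13), so the HOM difference was shared with other types.

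In HET, 32 of 2268 genes (1.41%) were at least 2-fold higher than in WT and 24 (1.06%) at least 2-fold lower. With the libraries scaled by the median ratio the counts were 27 and 30. In HOM, 52 of 2499 genes (2.08%) were at least 2-fold higher and 27 (1.08%) at least 2-fold lower. In cells with at least 2000 molecules the excess of higher genes was gone, with 8 higher and 11 lower in HET and 22 and 24 in HOM. The median log2 ratio over all genes was 0.02 in HET and 0.03 in HOM. For Striatal inh2 [7-P], with more cells and depth, the shares were 0.877% and 0.917% in HET and 1.23% and 0.977% in HOM.

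Penk had the largest ratio of the striatal genes in HET. It was at 213 (WT), 503 (HET) and 367 (HOM) ppm, a log2 ratio of 1.24 in HET (1.04 to 1.35 over the alternative settings) and 0.78 in HOM (0.70 to 0.85), with 0.11 and 0.04 in Striatal inh2 [7-P]. In all other cells together it was at 7.09, 12.3 and 7.84 ppm, which is also highest in HET. The mean value of the cells above 0 was 1.80, 3.00 and 2.98, and the 10 highest cells held 66.7%, 36.7% and 45.3% of the summed value. The WT level thus rests on 25 cells, and the intervals of the shares of cells with Penk overlap between all 3 libraries. The other pathway genes did not share this pattern. Adora2a had log2 ratios of −0.18 and 0.46, Ebf1 of −0.27 and −0.18 and Isl1 of −0.37 and −0.02, while Drd2 and Gpr6 did not reach the summed value of 50 that a comparison needs. Of 5 indirect-pathway genes compared, 2 were above and 3 below WT in HET, and 4 above and 1 below in HOM. Among all genes compared, 53.3% and 53.2% were above.

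The common striatal genes differed little. Of 13 striatal projection neuron genes compared, 4 were above and 9 below WT in HET (median log2 ratio −0.09), and 7 above and 6 below in HOM (0.06), while 53.3% and 53.2% of all genes were above. Foxp1 had log2 ratios of −0.17 and 0.12, Bcl11b of −0.05 and −0.10, Meis2 of −0.21 and −0.11 and Gnal of −0.09 and 0.08. None of these reached a 2-fold difference, and Foxp2 was the only gene of the list that did.

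Foxp2 (chr6:14901349-15441977, plus strand) was at 304, 240 and 148 ppm, lowest in HOM. The log2 ratio was −0.34 in HET (−0.62 to −0.26 over the alternatives) and −1.04 in HOM (−1.41 to −1.03), against −0.00 and −0.17 in Striatal inh2 [7-P]. In all other cells it was at 88.6, 96.7 and 95.4 ppm. It was above 0 in 21.7% (15.9–28.4), 18.1% (14.2–22.6) and 13.2% (10.0–17) of the cells. Within the direct-only cells it was at 730, 557 and 258, and within the indirect-only cells at 137, 109 and 51.5. The order WT, HET, HOM was the same in both classes. Both classes and all 3 libraries together held a summed Foxp2 value of only 127, most of it in direct-only cells. The order within the indirect-only cells thus rests on very few values. Mef2c, a transcription factor, was also lower in HOM (394, 343 and 203), as was Tle4 (270, 194 and 139).

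The retinoid receptors were higher in HOM. Rxrg was at 247, 364 and 447 ppm (log2 ratios of 0.56 and 0.86), with 0.67 and 0.99 in Striatal inh2 [7-P]. It was above 0 in 22.2% (16.4–29.0), 31.3% (26.4–36.5) and 36.1% (31.4–41.1) of the cells. Rarb had log2 ratios of −0.00 and 0.51, with 0.54 and 0.88 in Striatal inh2 [7-P]. Of the 13 retinoid genes 4 could be compared in HOM, with 3 above WT and 1 below (median log2 ratio 0.65). Among all genes compared in HOM, 53.2% were above. In all other cells Rxrg was at 4.76, 12.1 and 13.0 ppm and Rarb at 11.4, 17.7 and 21.9, so both were higher in HOM there too, and the difference was not limited to the striatal types.

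Genes of axon guidance were mostly lower. Of 12 compared, 1 was above and 11 below WT in each mutant, with median log2 ratios of −0.36 in HET and −0.37 in HOM. Among all genes compared in these cells, 53.3% (HET) and 53.2% (HOM) were above. The exceptions were the Wnt receptor Fzd3 in HET (0.13) and the Slit receptor Robo1 in HOM (0.08). Efnb2, an ephrin ligand, was at 194 (WT), 98.3 (HET) and 86.1 (HOM) ppm. Its receptor family members Epha4 (223, 141 and 129), Epha5 (232, 146 and 184) and Ephb1 (152, 98.3 and 115) and the netrin receptor Dcc (147, 88.7 and 86.1) were lower too. In Striatal inh2 [7-P] 5 of 18 were above in HET and 6 of 19 in HOM, with medians of −0.37 and −0.30, where 49.9% and 48.8% of all genes were above. Beyond these neurons, Efnb2 was above WT in 1 of 13 types compared for HET and in 0 of 11 for HOM, so the lower level was common to other types.

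Synaptic genes were mostly lower in these cells, with 1 of 11 above WT in HET (median log2 ratio −0.29) and 3 of 14 in HOM (−0.24). In Striatal inh2 [7-P] 8 of 18 and 9 of 19 were above. Of all genes compared, 53.3% (HET) and 53.2% (HOM) were above WT in these cells, and 49.9% and 48.8% in Striatal inh2 [7-P]. Camk2a, a kinase of the postsynaptic density, was at 109, 67.1 and 73.8 ppm, whereas the vesicle gene Vamp2 was at 242, 348 and 295. Genes of energy metabolism lay on the other side. Of the glycolytic genes 8 of 10 were above WT in HET (median 0.29) and 10 of 11 in HOM (0.36), and of the nuclear respiratory chain genes 19 of 22 (0.28) and 18 of 22 (0.20). Cytoskeletal genes were above WT for 11 of 13 in HET (0.13) and 13 of 13 in HOM (0.22). Striatal inh2 [7-P] lay on the same side, with 10 of 13 (0.39) and 13 of 14 (0.60) glycolytic genes, 18 of 22 respiratory chain genes in each mutant (0.24 in both) and 9 of 13 (0.06) and 12 of 13 (0.23) cytoskeletal genes above WT.

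Measures of library quality moved with these groups. The 3 genes that pick up ribosomal RNA were all below WT in both mutants (medians −1.47 and −1.38). Genes encoded in mitochondria were above WT for 10 of 12 in HET (0.18) and for 0 of 12 in HOM (−0.34), and the median mitochondrial share per cell was 4.03%, 4.78% and 3.19%. Cells under 1000 molecules made up 38.9%, 34.2% and 28.5%. Apoe, an astrocyte and microglia gene, was at 52.2, 95.9 and 109 ppm, and Ptgds, a gene of meninges and choroid plexus, was listed at 0 in WT and HET and stood at 652 in HOM, in 10.9% of the cells against 11.0% of HOM microglia. The part of these measures in the genotype differences was not tested.

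The largest single differences in HET included Mrps24, a mitochondrial ribosomal protein gene (85.4, 209 and 146 ppm), and Dcakd (104, 223 and 242) on the higher side, and Ythdc1, a reader of RNA methylation (266, 117 and 168), Jph4 (242, 125 and 191) and the chromatin remodeller Chd4 (237, 122 and 150) on the lower. Chd4 was higher than WT in 0 of 17 other types. In HOM the higher side held Hspa5, a chaperone of the endoplasmic reticulum (109, 189 and 248), the transcription factor Tshz2 (94.9, 156 and 193), Brinp1 (99.6, 93.5 and 201), the calcium sensor Hpca (109, 199 and 219) and the ferritin gene Fth1 (778, 1251 and 1480). Besides Foxp2, Mef2c and Tle4, the lower side held the adhesion gene Lsamp (242, 257 and 129) and Sgip1 (242, 141 and 129). Dcakd, Hpca and Hspa5 were above WT and Sgip1 below WT in both mutants, which share the WT library.

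Genes of immature neurons were divided, with 10 of 16 above WT in HET and 9 of 16 in HOM. Of all genes compared, 53.3% (HET) and 53.2% (HOM) were above, so the HOM count was near that share. Of 11 genes of the ganglionic eminence lineage, 4 were above WT in HET and 5 in HOM, among them Pbx3 at 114, 161 and 201 ppm, and Zfhx3 was below WT in both at 209, 129 and 135. None of the genes of the Notch pathway, the cell cycle, oligodendrocytes, microglia or endothelium reached the summed value needed for a comparison.

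**Figure D5:**
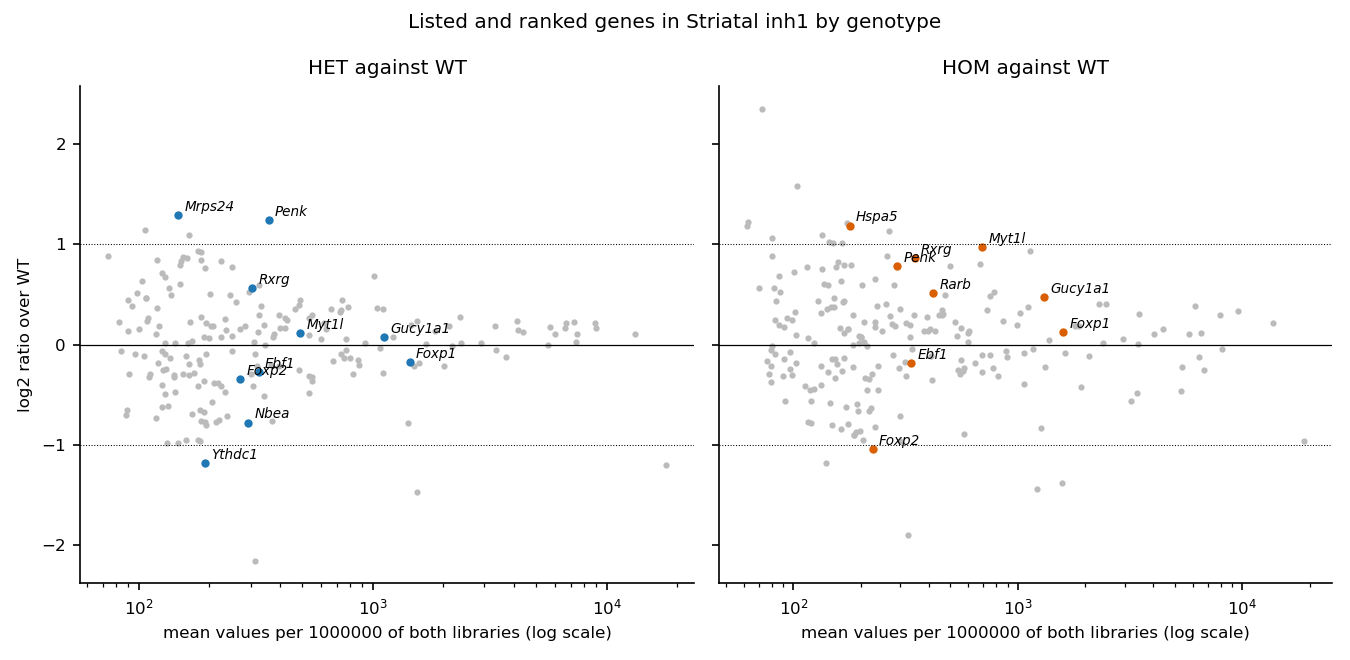
Log2 ratio of HET (206 genes) and HOM (220 genes) over WT in Striatal inh1 [3-P] against the mean level of each gene in parts per 1000000 on a log axis, with grey points for listed or leading genes and dotted lines at a 2-fold difference. Penk lies above the upper line in HET, and Foxp2 lies below the lower line in HOM.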

How the data were processed

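The deposited table held 18879 genes in 36263 cells, with cell type, Leiden cluster, library and label probability per cell. Per the labels and the study's methods, the authors mapped the reads with Cell Ranger (4.0.0) to the mm10 genome, filtered cells by genes and mitochondrial percent, processed them with Seurat (4.0), transferred cell types from a reference and removed blood cells. The treatment of doublets is not stated in these sources. The deposited values are whole numbers already corrected for depth by the authors (825 to 1952 per cell, from 499 to 17602 molecules), by a step the sources do not state, so they were treated as a score and not as raw counts, and no count model or thinning was used. The molecule counts, the mitochondrial percent and the label probability, a fraction, were used as deposited in the authors' cell table. Further deposited tables hold the authors' own fold changes and p-values between genotypes and were not used. Before correction the libraries held 23288915 (WT), 27370206 (HET) and 36398283 (HOM) molecules. The 4 sequencing runs of a genotype are 1 library, so each group is 1 sample and no p-value was computed.

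Values were summed per library and type with numpy (2.4.6) and pandas (2.3.3) in Python (3.11.15), and levels given per 1000000. Genes entered a comparison with a sum of at least 50 in its 2 groups together, and a ranking with at least 100. A difference was counted at a log2 ratio of at least 1, in all 3 libraries for comparisons of types, which used the 18 types with at least 100 cells per library. Named genes were the 15 highest against all other cells, the 10 highest and 10 lowest against Striatal inh2 [7-P] and in each mutant, ranked by the smallest ratio of the 3 libraries or by the ratio, and members of 36 gene lists. Intervals are exact (scipy 1.17.1). Cells and lists were chosen with earlier results of these data known. The narrower pathway sets, the comparison of indirect-only with direct-only cells and the repeat searched in promoters were chosen after values or sequences were seen. Sums and ratios were tested on simulated data. Alternatives were other scalings, minimum sums, depth and probability limits and subsets of cells. A few genes that these rules name are not reported here.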

Additional observations from a re-analysis of the deposited data

How the results depend on the processing

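No paired analysis was possible because each genotype is 1 library and no test was made. Of 255 alternative values of the main results, 202 stayed close to the reported value. Of 129 alternative list medians 8 took the other sign, 2 of them by more than 0.25 (Wnt in HET, from 0.13 to −0.27, and striosome in HOM, from −0.23 to 0.13, both at 1000 molecules), and that of the striatal projection neuron genes in HOM, 0.06, became −0.11 at a minimum sum of 20 and −0.06 at 1000 molecules. Of the named genes' ratios 519 of 537 kept their sign in HET and 543 of 564 in HOM. All 191 against Striatal inh2 [7-P] and all 165 against the other cells did too. Those genes had been ranked by their smallest ratio over the same 3 libraries. Their signs were thus largely set in advance, and this is no check of them. The cause of the values that moved was not tested beyond the change in genes or cells that each setting makes.

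With a minimum sum of 20, 273 genes were at least 2-fold higher and 147 lower in HET, and 312 and 185 in HOM, since more low genes are compared, and at 200 the counts were 1 and 2, and 2 and 2. In cells with at least 2000 molecules they were 8 higher and 11 lower in HET, and 22 and 24 in HOM, so that the balance of higher and lower genes turned in both. With a label probability of at least 0.9, 15 were lower in HET. Against Striatal inh2 [7-P] the counts were 127 and 216 with median-of-ratios scaling, 42 and 97 at a minimum sum of 200, and 262 lower with the WT library alone. Against all other cells 1201 were lower at a minimum sum of 200, 689 were higher and 3198 lower with the WT library alone, and 498 (HET) or 535 (HOM) were higher with a single mutant library. As a share of cells with at least 1000 molecules the cells were 2.02%, 3.48% and 3.55%, and of both striatal types 34.6%, 40.5% and 38.1%.

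Direct-only cells were 31.8% in WT at 1000 molecules, 23.6% and 26.4% in HET at 1000 and 2000, and 13.7% (HET) and 21.6% (HOM) with the narrower sets, which were added after the data were seen. Indirect-only cells were 42.7% and 53.0% in WT, 47.6% and 56.8% in HET and 44.5% and 47.9% in HOM at these depths, and 25%, 28.9% and 29.8% with the narrower sets, where cells with both were 0.556% (WT) and 1.27% (HOM). At 1000 molecules the list medians of log2 ratios were −0.27 (Wnt), −1.80 (ribosomal RNA) and 0.70 (astrocyte) in HET, and 0.17 (indirect pathway, and 0.020 at a minimum sum of 20), 0.13 (striosome), 0.13 (neuropeptide), −1.63 (ribosomal RNA) and 0.67 (astrocyte) in HOM. Without the cells with Xist, the WT share of cells was 1.90%. Depth limits the rest, since most genes fall under the minimum sum in 180 WT cells.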
